A study of Drosophila melanogaster with 20 samples.

Results

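Ageing was followed across all measured genes in heads of wild-type male Drosophila melanogaster, by setting 4 midlife libraries (2uo1, 2uo2, 2uo4 and 2uo5, flies of 22 to 23 days) against 5 young libraries (2uy1 to 2uy5, flies of 7 days). These are 9 of the 20 libraries of the series, chosen by age and genotype alone, and every gene of the table was tested. The other 11 libraries come from chm/+ males at the same ages (5 midlife, 6 young), which carry a mutant copy of chameau (chm), a histone acetyltransferase gene. They entered only the estimate of the spread between libraries and the test of whether the age change differed by genotype. Each sample held 25 to 30 heads of males kept in mixed-sex populations, and polyadenylated RNA was read as single reads of 50 bases. The sources used here do not name the wild-type strain or the chm allele, nor do they say whether replicates came from separate cultures, so the tests measure the spread between these libraries, which may be partly technical.

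A fly head holds the brain and the compound eyes together with muscle, cuticle, glia, fat body and circulating blood cells (haemocytes), and a head library mixes RNA from all of them. Fat body and haemocytes run the humoral immune response: peptidoglycan recognition proteins sense microbes, the Toll and Imd pathways carry the signal to transcription factors of the NF-kappaB family, and antimicrobial peptides are secreted. Serine protease cascades start Toll signalling and melanization, and serpins restrain them. Higher immune gene expression and lower expression of neuronal genes are known features of ageing flies.

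The deposited values are normalized counts per gene, not divided by gene length, so levels were compared between libraries and not between genes. A log2 change is the midlife minus the young mean of log2(normalized count + 14.48) in a limma fit, and the addend makes the changes of low genes smaller. A call, higher or lower at midlife, means a p under 0.05 after Benjamini-Hochberg adjustment across all 9831 genes. Column totals averaged 28404302 normalized counts at midlife and 28481806 in young flies (exact permutation test over 126 relabellings, two-sided, p = 0.881), and read depth is unknown. The values were normalized before deposit, so near-equal totals may come from the normalization. Libraries are named by their table columns, which carry a group but match no single listed sample. On the first component of the deviations from the group means, with 55.8% of their variance, 2uo1 (23.8), 2uy4 (23.0) and 2uy5 (23.0) stood apart from the other 6 libraries (-17.9 to -4.0). Library 2uy3 was the highest young library for 15 of 16 antimicrobial peptide genes. All 9 photoreceptor and all 7 neuronal marker genes measured were present in every library, among them ninaE, the main rhodopsin gene, at 1186000 to 1395000 in midlife heads and 1149000 to 1482000 in young heads. Of 14 testis gene symbols sought, 0 were in the table.

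At midlife 1218 genes were higher (12.4% of those tested) and 1111 were lower (11.3%), 23.7% in all, and the median change over all genes was -0.02. Under quantile normalization the balance turned, with 1083 higher and 1360 lower. Increases ran larger than decreases. Among called genes, 292 rose at least 2-fold (2.97% of those tested) and 52 fell at least 2-fold (0.529%). At 4-fold the counts were 77 higher and 7 lower, and at 8-fold 33 higher and 1 lower. Small shifts made up most of the decreases: 777 of the 1111 lower genes changed by less than 0.5 on the log2 scale, as did 445 of the 1218 higher genes. All 4 midlife libraries lay above all 5 young libraries for 1070 genes (10.9%) and below them for 914 (9.3%). Of the called genes, 983 of the higher and 811 of the lower showed this separation. Without 2uo1, 2uy4 and 2uy5, 2250 genes were called, 1905 of them among the 2329. The table holds the libraries in 2 sets of 10 columns whose meaning the labels do not give: 2uo4, 2uo5 and 2uy1 to 2uy3 in the first, 2uo1, 2uo2, 2uy4 and 2uy5 in the second. Of the genes called higher 1214 of 1218 had a change above 0 in both sets, as had 1111 of 1111 called lower a change below 0. The calls came from these same libraries, which favours agreement in sign, so this is not a replication. Fitted on its own, the first set gave 3167 calls and the second 408. The genes called higher took 15.2 to 17.6% of all normalized counts in midlife libraries, against 8.83 to 9.53% in young libraries. The genes called lower took 9.15 to 9.88% at midlife, against 12.4 to 14.3% in young flies. The direction of both shifts follows from the choice of the genes in these same libraries, and only their size is descriptive. Large increases were most frequent among the genes of lowest level: 122 of the 292 lay in the lowest of 5 equal classes of mean level, against 51 in the highest.

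By chromosome arm, the share called higher was 15.2% on 2L, 14.8% on 2R, 9.74% on 3L, 13.6% on 3R and 8.90% on X. With the histone gene copies left out the share on 2L was 13.2%. On the small chromosome 4, 0 of 86 genes were called higher and 1 lower, with a median change of -0.12. Of 18 mitochondrially encoded genes 0 were called, and their median over genes ran from -1.76 to 0.70 among the midlife libraries and from -1.04 to 1.29 among the young ones, relative to each gene's young mean. For these transcripts the range within each age was wider than the median difference of the ages (-0.48).

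**Figure D1:**
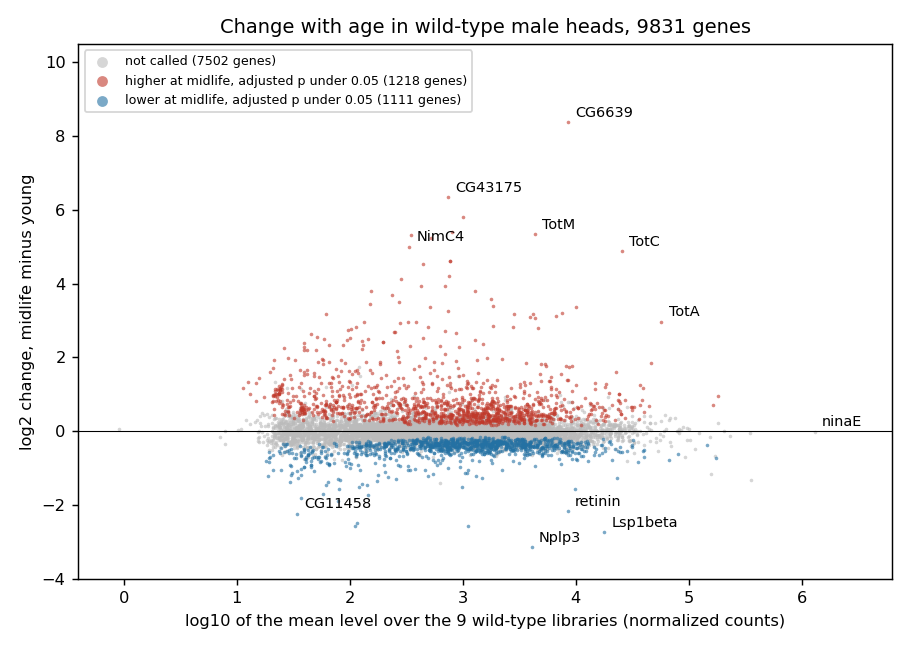
Log2 change with age (vertical axis, midlife minus young) against the log10 of the mean normalized count over the 9 wild-type libraries (horizontal axis), 1 point per gene, with 1218 genes called higher in red, 1111 called lower in blue and the others in grey. The points above 2 outnumber those below -2, and they include genes of low level such as NimC4 and of high level such as TotC and TotA.

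The 15 steepest increases included genes near absence in young heads, such as CG43175 and NimC4, and genes already expressed there, such as TotC. CG6639, named SPH93 in the reference tables and so a serine protease homologue, had 19630, 13370, 24230 and 18690 normalized counts in midlife libraries 2uo1, 2uo2, 2uo4 and 2uo5, against 15.5, 41, 255.3, 17.5 and 23.3 in young libraries 2uy1 to 2uy5. Its lowest midlife library thus stood far above its highest young library, 2uy3 (log2 change 8.38, SE 0.68, adjusted p = 6.51e-08). CG43175, for which the tables give no name beyond the number, stood at 2418, 809.1, 2576 and 877.6 in midlife libraries and 1.14, 0.913, 7.62, 3.21 and 5.53 in young libraries (log2 change 6.35, SE 0.50, adjusted p = 4.48e-08). The midlife libraries fell into a pair near each of 2 levels, and both levels lay far above every young library. The other 13 of the 15 highest changes were CG9673 (5.82), CG7763 (5.40), TotM (5.35), CG10814 (5.33), CG18563 (5.25), NimC4 (5.01), TotC (4.88), the pair Tsp42Eb and CG30160 (4.61 each), spheroide (4.54), Jhe (4.20), CG4653 (4.12) and CG8100 (3.94). In all 15, which were chosen by the size of their change, every midlife library lay above every young library. The rows of Tsp42Eb, a tetraspanin gene, and of its neighbour CG30160 differ by less than 0.01 in log2 in every library, so their reads cannot be told apart. The rows of CG18477 and CG31780 and those of IM10 and CG33470 are alike in the same way.

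Several of the steepest increases carry names of the serine protease series. Of 83 CG-numbered genes with such a name in the reference tables, gathered after these values were seen, 38 rose and 7 fell (4 fell without 2uo5), with a median change of 0.37, beside 12.4% and 11.3% of all genes. CG9673, CG18563 and CG4653 carry serine protease homologue (SPH) names in the reference tables, as does CG4650, and CG30087 is listed among the serine proteases (SP). CG9673 had 1709, 1977, 2539 and 2684 normalized counts in midlife libraries and 26.7, 29.7, 32, 9.82 and 30.2 in young libraries. CG18563 had 1355, 680.6, 1221 and 1387 at midlife and 7.67, 17.2, 32.2, 11.8 and 12.5 in young flies. In both genes the lowest midlife library stood more than an order of magnitude above the highest young one. CG30087 (273.1 to 409.5 in midlife heads, 6.48 to 15.5 in young heads) and CG4650 (107.1 to 175.1 against 0.935 to 5.22) lay below 1 CPM in every young library and above 2 CPM in every midlife library. Such a change from below 1 to at least 2 CPM was seen in 18 genes, among them the integrin genes Itgbetanu and ItgalphaPS4, the taste receptor genes Gr59e and Gr59f, NimC4 and Jhedup. The converse was seen in 3 genes, Cry, Cks30A and CG11349. Of the 5 higher genes with the smallest p, Obp56a, an odorant-binding protein gene, stood first (811.2, 868, 896.7 and 1227 in midlife libraries, against 96.5, 116.7, 165.3, 125.6 and 103.7 in young libraries; log2 change 2.83, SE 0.14, adjusted p = 1.23e-10), followed by CG10814, CG30087, CG4650 and Whamy, a gene of the actin nucleation promoter family. Whamy changed far less (1.31, SE 0.09, adjusted p = 1.08e-08) but with little spread, at 163.8 to 189 in midlife heads and 53.1 to 72.3 in young heads.

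**Figure D2:**
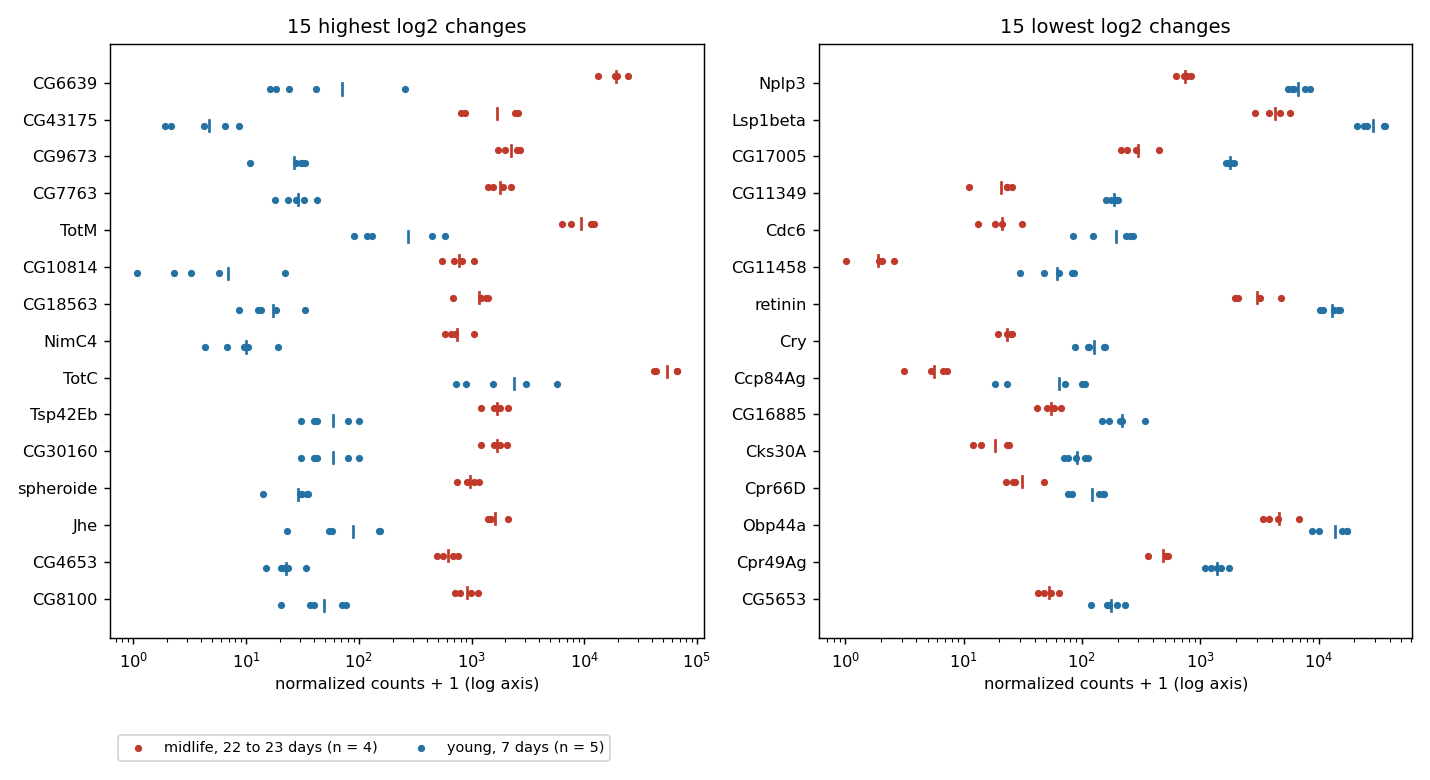
Normalized counts plus 1 (log axis) of the 15 genes with the highest log2 changes (left) and the 15 with the lowest (right), 1 point per library, with midlife libraries in red above young libraries in blue and a bar at each mean. In every gene the 4 midlife points lie on one side of the 5 young points, as in CG6639 with 13370 or more at midlife against 255.3 or less in young heads.

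Many genes that sense microbes and carry the signal were higher at midlife. Of 13 recognition genes measured 8 rose, 0 fell and 5 were not called (median 0.69), beside 12.4% of all genes higher. The count was 5 without 2uo5 and 4 without 2uy1. PGRP-SA, the circulating recognition protein that starts Toll signalling, had 1917, 2137, 3086 and 4090 normalized counts in midlife libraries and 607.9, 859.7, 844.7, 539.8 and 564.7 in young libraries (log2 change 1.98, SE 0.29, adjusted p = 6.68e-05). PGRP-LF, a membrane protein that dampens Imd signalling, rose by 1.10 (295.7 to 498.2 at midlife, 145.2 to 185.3 in young heads). PGRP-SC2, an amidase that degrades peptidoglycan, ran from 1288 in 2uo2 to 4116 in 2uo5 at midlife. In young heads it stood at 528.5 in 2uy3 and at 89.3 to 137.6 in the other libraries (log2 change 3.81, SE 0.56, adjusted p = 6.17e-05). Of the Toll pathway genes 10 of 16 rose and 0 fell (median 0.39; 6 rose without 2uo5). The largest change in the list was extracellular: spheroide, a serine protease homologue of the activating cascade, had 736.3, 906.9, 1166 and 1060 in midlife libraries against 34.1, 33.6, 30, 13 and 29.2 in young libraries (log2 change 4.54, SE 0.41, adjusted p = 2.1e-07). Inside the cell the adaptor Myd88 (0.47, SE 0.08) and the NF-kappaB factor dl (0.39, SE 0.08) rose little but without overlap between the ages. The receptor Tl (0.24), the adaptor tub (0.06) and the factor Dif (0.07) were not called. In the Imd pathway 6 of 17 genes rose and 0 fell, with a median of 0.08; 2 rose without 2uo5, 3 without 2uy1 and 3 without 2uy2. The NF-kappaB factor Rel was 5856 to 8129 at midlife against 3097 to 4216 in young heads (log2 change 0.85, SE 0.14, adjusted p = 0.000172), and pirk, which restrains the pathway, was 615.1 to 798.2 against 332.9 to 429.4 (log2 change 0.85, SE 0.12, adjusted p = 5.81e-05).

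The secreted effectors changed by more than the pathway genes and varied more between libraries. The antimicrobial peptide list had 12 of 16 members higher, 0 lower and a median change of 2.91. Without 2uo5 or without 2uy1 7 rose, without 2uo1, 2uy4 and 2uy5 together 7, and without 2uy3 14. DptB, a diptericin active against Gram-negative bacteria, had 3972, 1852, 2155 and 4049 normalized counts in midlife libraries and 24.2, 84.8, 3199, 129.4 and 419.1 in young libraries (log2 change 3.58, SE 0.87, adjusted p = 0.0051). The young library 2uy3 stood above midlife libraries 2uo2 and 2uo4, so the ages overlapped for this gene. Overlap was the rule in this list. All 4 midlife libraries lay above all 5 young libraries for 3 of the 16 genes, beside 10.9% of all genes. AttD, an attacin that lacks a secretion signal, showed a steadier difference, at 594.1 to 1085 in midlife heads and 33.7 to 266 in young heads (log2 change 2.53, SE 0.42, adjusted p = 0.0002). Drosocin (Dro) stood at 12330, 5210, 10490 and 23010 in midlife libraries and 324.9, 782.6, 4769, 1487 and 1709 in young libraries (log2 change 3.13, SE 0.63, adjusted p = 0.00114). Its highest young library was again 2uy3 and its lowest midlife library 2uo2. Bomanins and other short induced peptides rose in 6 of 17 genes (median 0.80); 3 rose without 2uo5, 11 without 2uo2 and 2 without 2uo1, 2uy4 and 2uy5 together. All 17 had changes above 0. Their highest change was 1.32. CG18067, named Bbd in the reference tables and not a member of this list, had 88080, 50490, 83030 and 86030 in midlife libraries against 16550, 21900, 25680, 22560 and 18970 in young libraries (log2 change 1.85, SE 0.26, adjusted p = 4.93e-05).

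Stress peptides of the Turandot family showed some of the largest shifts in total counts. TotA, a humoral factor induced by infection and other stress, had 137700, 72980, 76770 and 155200 normalized counts in midlife libraries against 7154, 13250, 18140, 17090 and 14450 in young libraries (log2 change 2.97, SE 0.50, adjusted p = 0.000223). TotC had 66130, 41560, 43210 and 66290 at midlife against 898.4, 3038, 5751, 1534 and 733.1 in young flies. Libraries 2uo1 and 2uo5 were the highest for both genes, and no young library came near them; without 2uo1, 2uy4 and 2uy5 the change of TotC was 4.29, against 4.88 with them. TotM (6295 to 12220 at midlife, 90.5 to 580.4 in young heads) and TotB (53.2 to 122 against 0.0527 to 7.75) behaved likewise. With TotX and et, where the call of et was lost without 2uo4, 2uo5, 2uy3, 2uo2, 2uy4 or 2uy5, 6 of 10 genes of the Turandot and JAK-STAT list rose and 0 fell. The core components hop (-0.04), dome (0.02) and Stat92E (0.12) and the feedback inhibitor Socs36E (0.14) were not called.

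Melanization, in which phenoloxidase deposits melanin at wounds, showed increases in proteases, serpins and 1 enzyme gene. Of 11 genes 6 rose and 0 fell (median 0.44): Sp7, a protease that activates prophenoloxidase (0.51), the protease Hayan (0.69), yellow-f, a dopachrome conversion enzyme (0.90, SE 0.17), and the serpins Spn27A (0.69), Spn28Dc (0.64) and Spn77Ba (0.44). The protease gene MP1 (0.24) and the prophenoloxidase genes PPO1 (-0.33), PPO2 (-0.39) and PPO3 (0.24) were not called. Serpins as a family, gathered after their values were seen, rose in 10 of 14 genes and fell in 0 (median 0.49; 7 rose without 2uo2). Spn88Eb led them with 9547, 7878, 8461 and 9161 normalized counts in midlife libraries against 869.2, 992.4, 1327, 1563 and 1621 in young libraries (log2 change 2.81, SE 0.27, adjusted p = 3.99e-07). The ages did not overlap by a wide margin.

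**Figure D3:**
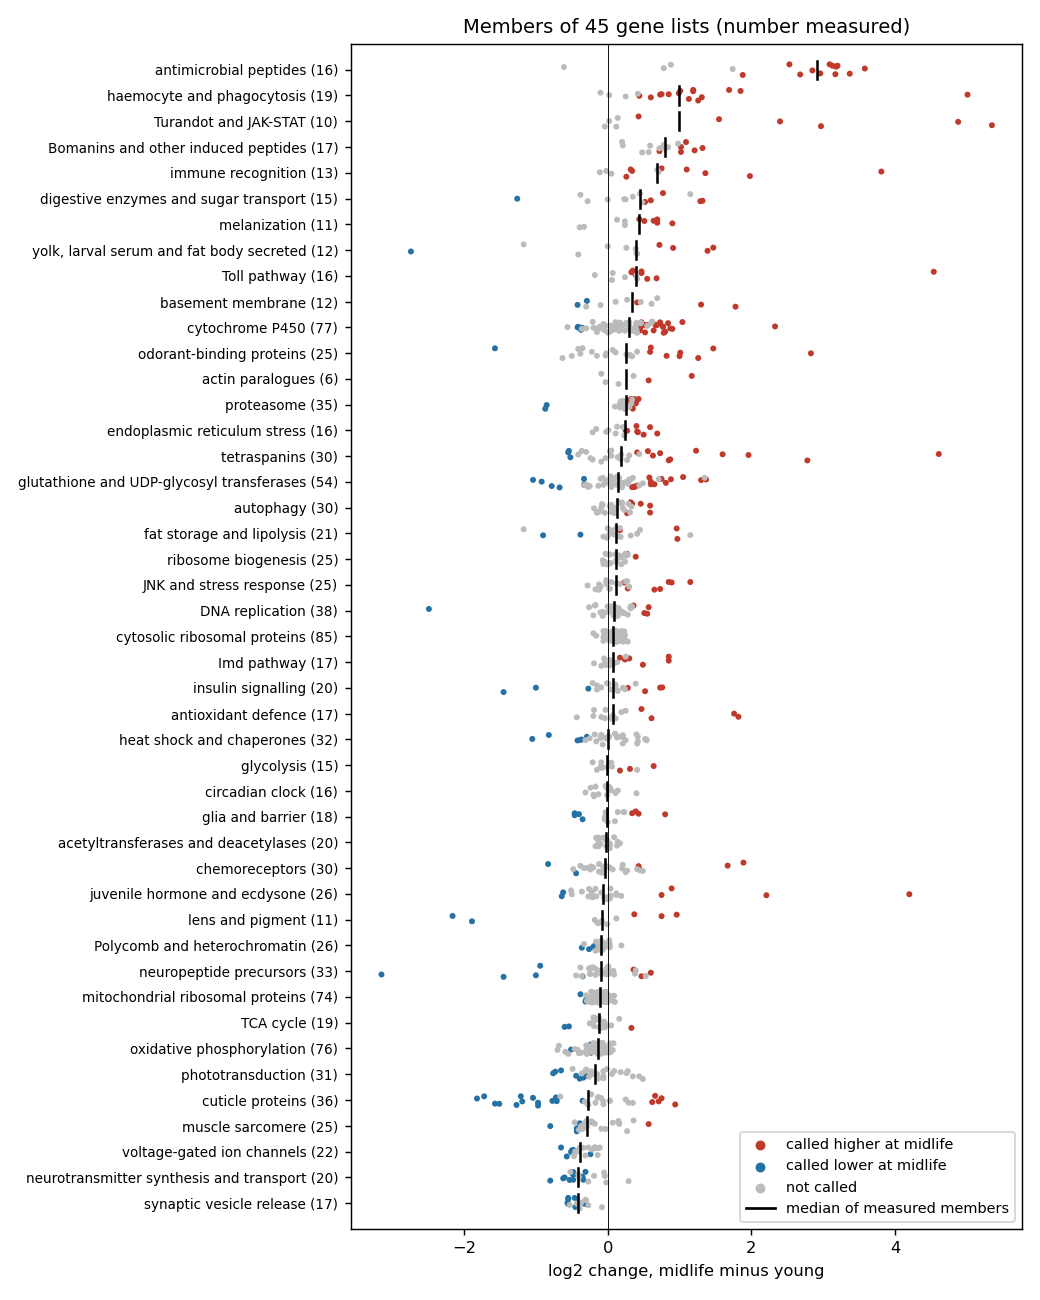
Log2 change with age of every measured member of 45 gene lists (number measured in brackets), 1 point per gene, with genes called higher in red, genes called lower in blue, others in grey and a bar at the median. Lists run from antimicrobial peptides (median 2.91) at the top to synaptic vesicle release (median -0.42) at the bottom, where no member is above 0.

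Most phagocytosis genes were higher at midlife. Of 19 haemocyte and phagocytosis genes 15 were called higher, 0 lower and 4 were not called (median 0.99), and leaving out each library in turn gave 14 to 16. NimC4, the receptor for apoptotic cells also known as SIMU, had 576.8, 707.1, 1044 and 654.4 normalized counts in midlife libraries and 8.58, 18.4, 9.37, 3.32 and 5.78 in young libraries (log2 change 5.01, SE 0.41, adjusted p = 6.79e-08). NimC1, a receptor for bacteria on plasmatocytes, had 1037, 963.1, 1034 and 1296 at midlife against 228.2, 385.9, 182.4, 446.5 and 273.4 in young flies (log2 change 1.85, SE 0.32, adjusted p = 0.000327). Both separated the ages fully, NimC4 by the wider margin. The engulfment receptor drpr was 5699 to 7536 at midlife and 3405 to 3923 in young heads (log2 change 0.85, SE 0.11, adjusted p = 2.1e-05), and the opsonin gene Tep2 was 22130 to 31330 against 9113 to 13040 (log2 change 1.19, SE 0.18, adjusted p = 6.47e-05). The integrin pair that serves phagocytosis moved too, Itgbetanu (349.5, 232.4, 406.4 and 291.3 in midlife libraries, 18.1, 15.3, 14, 17 and 14.7 in young libraries; log2 change 3.44, SE 0.28, adjusted p = 6.22e-08) and its partner scb (1984 to 2549 against 688.7 to 724.5; log2 change 1.59, SE 0.12, adjusted p = 3.73e-08). The other integrin chains gave ItgalphaPS4 (1.57) and mys (0.23) higher and if (0.13) and mew (0.01) not called, with the call of mys lost without 2uo4, 2uo5, 2uy2, 2uy3, 2uo1, 2uy4 or 2uy5. The 5 haemocyte markers are not separate evidence, since all but PPO1 are members of the list above. Hml (6240, 4371, 4448 and 5703 in midlife libraries, 1769, 2882, 1392, 2924 and 2155 in young libraries), NimC1 and eater (1.31) rose, while Pxn (-0.10) and PPO1 (-0.33) were not called. The call of eater was lost without 2uo1 (adjusted p = 0.0508). These 5 markers summed to 9421 to 11160 normalized counts in midlife libraries, against 4840 to 7763 in young libraries. More cells of a type and more RNA per cell cannot be told apart in such mixed tissue, and the part of haemocyte number in these results was not tested. The Nimrod genes also stand together in the genome: the longest run of neighbouring genes called higher, histone copies aside, was NimB1 to NimB5, NimC1, the P450 gene Cyp28a5 and NimC2, 8 genes on 2L in the reference gene order (the call of NimB4 was lost without 2uo4 or 2uo5).

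Tetraspanins, membrane proteins that organise other proteins in the cell surface, split by member. Of 30 measured genes of the Tsp name series or named lbm, 11 rose and 3 fell, beside 12.4% of all genes higher and 11.3% lower. This name pattern leaves out the tetraspanin gene TM4SF, which fell (-0.94). Beside Tsp42Eb, Tsp42Er was 117 to 325.8 at midlife and 6.57 to 35.2 in young heads (log2 change 2.78, SE 0.36, adjusted p = 1.8e-05) and Tsp42Ed was 2893 to 5112 against 794.2 to 1157 (log2 change 1.96, SE 0.21, adjusted p = 1.87e-06). Within the same gene cluster Tsp42Ek (376.3 to 503.5 at midlife, 547.3 to 672.9 in young heads; log2 change -0.55, SE 0.10, adjusted p = 0.000696) and Tsp42Ej (log2 change -0.54, SE 0.12, adjusted p = 0.00309) fell. Extracellular matrix genes divided as well. Ppn, the papilin of basement membranes, had 12280, 13530, 15950 and 19630 in midlife libraries against 4003, 5488, 3276, 5082 and 4458 in young libraries (log2 change 1.78, SE 0.24, adjusted p = 2.07e-05), and the laminin chain LanA was 907.1 to 1373 against 354.1 to 574.5 (log2 change 1.30, SE 0.21, adjusted p = 0.000169). The perlecan gene trol (-0.29) and the nidogen gene Ndg (-0.42) were called lower, and Ndg was not called without 2uo5, 2uy1, 2uy2, 2uy3 or 2uy5. Of the 12 genes of the list 3 rose and 2 fell, beside 12.4% of all genes higher and 11.3% lower. The number that fell is near that share. The collagen IV genes Cg25C (0.61) and vkg (0.46) were not called, though Cg25C was without 2uo1. Mmp1, a matrix protease and JNK target, was 1399 to 1931 at midlife and 736.3 to 904.9 in young heads (log2 change 0.89, SE 0.11, adjusted p = 1.29e-05), and egr, the fly tumour necrosis factor ligand, was 1285 to 1428 against 679.6 to 862 (log2 change 0.85, SE 0.12, adjusted p = 4.45e-05). Of 25 JNK and stress genes 7 rose and 0 fell, beside 12.4% of all genes higher.

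Genes for folding, moving and breaking down proteins shifted by small amounts. Of 16 genes of the endoplasmic reticulum stress list 8 rose and 0 fell (median 0.24; 6 to 8 with a library left out). Gp93, a chaperone of the reticulum, was 7459 to 10620 at midlife and 4589 to 6936 in young heads (log2 change 0.69, SE 0.16, adjusted p = 0.00356). The disulphide isomerase gene Pdi (log2 change 0.50, SE 0.11, adjusted p = 0.00249), its relative CaBP1 (0.59) and the transcription factor gene Xbp1 (0.42) rose with it. The sensor gene Ire1 (0.01) was not called. Of the COPI coat, which carries vesicles back to the reticulum, 4 of 7 subunits rose, betaCOP by 0.53 (SE 0.14); this family was gathered after its values were seen. Lysosomal protease genes rose without overlap between the ages: CtsB1 (15430 to 18750 at midlife, 10740 to 12150 in young heads; log2 change 0.59, SE 0.10, adjusted p = 0.000189), Cp1 (log2 change 0.59, SE 0.10, adjusted p = 0.000381) and cathD (log2 change 0.46, SE 0.09, adjusted p = 0.001). So did Sap-r, the saposin precursor of lysosomal lipid breakdown, at 57870, 55520, 56030 and 54980 in midlife libraries and 33240, 35540, 31010, 37520 and 37000 in young libraries (log2 change 0.69, SE 0.10, adjusted p = 4.82e-05). Of 35 proteasome genes 16 rose, with changes of 0.24 to 0.43, and 2 fell, beside 12.4% of all genes higher and 11.3% lower. The number that rose was 10 without 2uo4, 6 without 2uo5, 10 without 2uy1 and 7 without 2uo2. The 2 that fell, Rpt4R (98.8 to 118.2 at midlife, 194.9 to 228.8 in young heads; log2 change -0.87, SE 0.11, adjusted p = 1.34e-05) and Rpt3R (-0.85), are copies best known from the testis, while Rpt4 rose by 0.39 (not without 2uo5 or 2uo2) and Rpt3 (0.34) was not called, except without 2uo1. In the heat shock and chaperone list 6 of 32 genes fell and 0 rose (median 0.01), beside 11.3% of all genes lower. Hsp67Bc (61.6 to 87.5 at midlife, 144.2 to 174.2 in young heads; log2 change -1.05, SE 0.12, adjusted p = 4.88e-06) and Hsp67Ba (log2 change -0.82, SE 0.12, adjusted p = 5.35e-05) fell most.

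The 15 lowest changes held genes of secreted, cuticle and eye lens proteins, the cell cycle genes Cdc6 and Cks30A and 4 genes without a name in the tables. Nplp3, a precursor of neuropeptide-like peptides, had 774, 827.8, 627.9 and 730.9 normalized counts in midlife libraries against 6142, 5528, 5901, 7651 and 8398 in young libraries (log2 change -3.15). Its highest midlife library was below its lowest young library by a wide margin. retinin, a corneal lens protein gene, stood at 1973, 3211, 2100 and 4854 in midlife libraries and 14670, 13550, 15060, 10310 and 10800 in young libraries (log2 change -2.16, SE 0.21, adjusted p = 5.84e-07). Cry, the crystallin gene of the lens and not the cryptochrome gene, was 18.4 to 24.6 at midlife and 87 to 156.7 in young heads (log2 change -1.89, SE 0.19, adjusted p = 8.17e-07). A further lens protein gene, Cpr72Ec, rose by 0.75, a call lost without 2uo1, 2uy4 and 2uy5 together. All 9 photoreceptor markers were uncalled, with a summed level of 2083000 to 2414000 in midlife libraries and 2047000 to 2502000 in young libraries. Among 36 cuticle genes 15 fell and 5 rose (median -0.27; 14 to 15 fell with a library left out), beside 11.3% of all genes lower. Cpr49Ag had 361.4, 514.8, 510.7 and 528.2 in midlife libraries and 1753, 1391, 1493, 1239 and 1103 in young libraries (log2 change -1.51, SE 0.19, adjusted p = 8.61e-06), and Cpr49Ae was 700.7 to 797.2 against 1553 to 1954 (log2 change -1.21, SE 0.11, adjusted p = 2.76e-07). Ccp84Ag was nearly gone at midlife (2.17, 4.34, 6.21 and 5.68), against 99, 104.7, 71.3, 17.4 and 22.1 in young libraries. The 3 Vajk genes CG16886 (-1.19), CG16885 (-1.72) and CG16884 (-1.27) fell together. Those that rose were Edg91 (0.94), Cpr72Ec, Cpr67B (0.71), TwdlT (0.66, not without 2uo5 or 2uo2) and TwdlE (0.62). tyn, a gene of apical matrix at epidermal surfaces, was 249.8 to 313.5 at midlife and 569.4 to 739.6 in young heads (log2 change -1.21, SE 0.10, adjusted p = 6.79e-08).

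Cdc6, which loads the replicative helicase, had 20.1, 17.4, 30.3 and 12.1 normalized counts in midlife libraries against 268.2, 233.7, 251.5, 82.4 and 123.1 in young libraries (log2 change -2.49, SE 0.32, adjusted p = 1.56e-05). The young libraries 2uy4 and 2uy5 stood below the other 3 and still above every midlife library. Cks30A, a cyclin-dependent kinase subunit, was 11 to 23.1 at midlife and 69.7 to 110.9 in young heads (log2 change -1.71, SE 0.20, adjusted p = 3.74e-06). Of 38 replication genes in the list Cdc6 alone was called lower. In the same list 5 rose, near the share of 12.4% of all genes higher. The number that rose was 2 without 2uo5 or 2uy1 and 3 without 2uy3 or 2uo1. Cdc6 lies in the longest run of neighbouring genes called lower, 7 genes on 3L in the reference order: S-Lap2 (-1.21), GAPsec (-0.77), Zasp66 (not without 2uo5), Cdc6, the cuticle gene Cpr66D (-1.57), CG13305 (-1.35) and Pex7 (-0.52). The counting is not stated to use strand, so reads of overlapping neighbours may be shared between them. CG17005 had the smallest p among the decreases, at 237.8, 282.9, 442.9 and 214.8 in midlife libraries and 1786, 1636, 1704, 1929 and 1785 in young libraries (log2 change -2.58, SE 0.16, adjusted p = 1.93e-09). CG11349 (10.2 to 24.7 at midlife, 159.8 to 201.1 in young heads) and CG11458 (0.0171 to 1.57 against 28.7 to 84.4) fell to near 0, and the tables give no name for these 3 genes. TM4SF, a tetraspanin gene, had the fifth smallest p among the decreases, at 2790 to 3004 in midlife heads and 5027 to 6296 in young heads (log2 change -0.94, SE 0.08, adjusted p = 1.12e-07).

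Neuronal gene lists fell by small amounts in many members, at shares above the 11.3% of all genes called lower. Of 20 genes of neurotransmitter synthesis and transport 0 rose and 11 fell (median -0.41; 8 to 12 fell with a library left out). Of 17 synaptic vesicle genes 0 rose and 9 fell (median -0.42; 5 without 2uo2), and of 22 voltage-gated channel genes 0 rose and 7 fell (median -0.39; 6 to 8). Gad1, which makes GABA, had 9979, 8038, 9681 and 8718 normalized counts in midlife libraries against 16650, 14620, 14230, 17620 and 16100 in young libraries (log2 change -0.80, SE 0.10, adjusted p = 1.74e-05), and VGAT, which loads GABA into vesicles, was 1262 to 1494 against 1944 to 2288 (log2 change -0.62, SE 0.07, adjusted p = 2.1e-06). Both marks of inhibitory neurons thus separated the ages without overlap. Cha, which makes acetylcholine, was 2050 to 2341 at midlife and 2797 to 3408 in young heads (log2 change -0.48, SE 0.07, adjusted p = 8.52e-05), and Ddc, of dopamine and serotonin synthesis, was 6138 to 6655 against 8529 to 10300 (log2 change -0.53, SE 0.08, adjusted p = 5.68e-05). In the vesicle cycle comt, the NSF ATPase, was 6664 to 7639 at midlife and 10100 to 11330 in young heads (log2 change -0.56, SE 0.07, adjusted p = 6.26e-06), and Syngr fell by 0.55 on the log2 scale (adjusted p = 5.89e-05). Among channels Shal (log2 change -0.51, SE 0.08, adjusted p = 0.000134) and Ih (log2 change -0.57, SE 0.12, adjusted p = 0.00128) carry potassium and hyperpolarization-activated currents, and tipE (log2 change -0.45, SE 0.07, adjusted p = 8.89e-05) is an auxiliary subunit of the sodium channel. The sodium channel gene para itself had a change of -0.47 and was not called. Atpalpha, the sodium pump catalytic subunit, had 69500, 57280, 65390 and 54430 in midlife libraries and 83250, 95370, 92780, 99290 and 104900 in young libraries (log2 change -0.63, SE 0.12, adjusted p = 0.000599).

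The neuronal marker genes are not separate evidence, since all but elav are also members of the neurotransmitter or synaptic vesicle lists. Of 7 markers of neurons 5 fell (Gad1, Cha, nSyb, VGlut and Syt1) and 0 rose, with a median of -0.48; 2 fell without 2uo2, and the call of Syt1 was also lost without 2uo5, 2uy4 or 2uy5. Library 2uo2 had the lowest median of the midlife libraries (-0.80, against -0.54 to -0.25 in the other 3). The summed level of the 7 markers was 59950 to 87350 in midlife libraries and 98450 to 115900 in young libraries. The pan-neuronal gene elav (-0.41) was not called, at 4951, 2280, 3725 and 2996 in midlife libraries and 3209, 3846, 3821, 5590 and 6612 in young libraries. The part of neuron number or RNA content was not tested. Glial markers did not shift in 1 direction: repo, the nuclear marker of glia, was 1132 to 1448 at midlife and 1082 to 1636 in young heads, moody (0.39) rose and Eaat1 (-0.35) fell, a call lost without 2uo4, 2uo5, 2uo2, 2uy4 or 2uy5. Families of cell surface proteins that pair neurons with their partners fell in most members, and were gathered after their values were seen: 16 of 20 dpr genes (median -0.42; 10 without 2uo5) and 11 of 13 beat genes (median -0.40; 7 without 2uo5, and 7 without 2uo1, 2uy4 and 2uy5 together). These counts, and that of the amine receptors below, stand beside 11.3% of all genes lower. dpr15 was 479 to 589.5 at midlife and 726.3 to 844.2 in young heads (log2 change -0.52, SE 0.08, adjusted p = 9.57e-05). Receptors for dopamine, serotonin, octopamine and tyramine fell in 10 of 16 genes (median -0.42; 9 to 13), DopEcR by the most (5740 to 9606 at midlife, 10340 to 15260 in young heads; log2 change -0.79, SE 0.18, adjusted p = 0.0032).

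**Figure D4:**
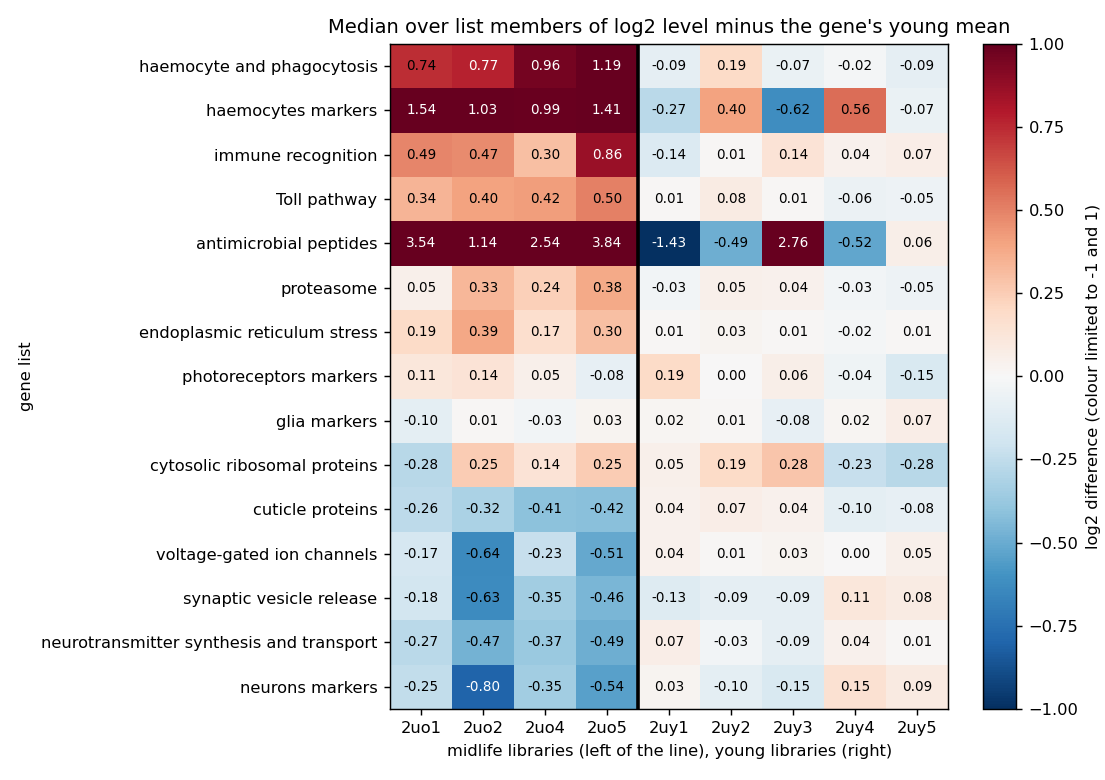
Median over list members of the log2 level minus the gene's young mean, for 15 gene lists or marker lists (rows) in the 4 midlife libraries (left of the line) and the 5 young libraries (right), with red above and blue below 0 and colours limited at -1 and 1. The neurotransmitter, synaptic vesicle, ion channel and neuron marker lists are below 0 in all 4 midlife libraries and nearest to 0 in 2uo1. Antimicrobial peptides in the young library 2uy3 (2.76) lie among the midlife libraries (1.14 to 3.84). The neuron and haemocyte markers share most members with other rows shown.

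Neuropeptide precursors did not move as a list, with 3 of 33 higher and 5 lower, and 8 lower without 2uo1. Counts here stand beside 12.4% of all genes higher and 11.3% lower. Of the insulin-like peptide genes of the brain's insulin cells Ilp3 (107.3, 59.5, 81.5 and 26.1 in midlife libraries, 124.5, 256.7, 260.8, 202.2 and 171.2 in young libraries; log2 change -1.45, SE 0.27, adjusted p = 0.000606) and Ilp5 (442.5, 506.2, 404.1 and 515 against 645.6, 1019, 1125, 989.8 and 1039; SE of the log2 change 0.15, adjusted p = 8.89e-05) fell. Ilp2 (-0.21) was not called, and its difference from the other two was not tested. The receptor gene InR was 1780 to 3235 at midlife and 1005 to 1685 in young heads (log2 change 0.76, SE 0.16, adjusted p = 0.00146), and Thor, a translation inhibitor and target of foxo, was 4804 to 6046 against 2373 to 3985 (log2 change 0.73, SE 0.14, adjusted p = 0.000765). SIFa, a peptide of a few brain neurons, was 134.3 to 223.2 at midlife and 294.4 to 422.9 in young heads (log2 change -0.94, SE 0.17, adjusted p = 0.000362). In phototransduction 8 of 31 genes fell and 0 rose (median -0.17; 5 fell without 2uo4 or 2uy3 and 4 without 2uo5, and 1 rose in several of the fits with a library left out). The channel gene trpl had 113800, 137400, 129100 and 121700 in midlife libraries against 248800, 223700, 231000, 176400 and 172700 in young libraries (log2 change -0.73, SE 0.13, adjusted p = 0.000502), and its partner channel trp (-0.06) was not called. Calx, the sodium and calcium exchanger, was 4764 to 5607 at midlife and 8139 to 9132 in young heads (log2 change -0.76, SE 0.09, adjusted p = 3.06e-06), and eys, which holds open the space between rhabdomeres, was 5811 to 7146 against 8163 to 11960 (log2 change -0.65, SE 0.11, adjusted p = 0.000271). Odorant-binding proteins ran both ways, with 8 of 25 higher and 1 lower (3 lower without 2uy1). Obp44a fell to 3817, 6780, 3365 and 4539 in midlife libraries, against 17220, 17340, 15720, 10110 and 8734 in young libraries (log2 change -1.57, SE 0.29, adjusted p = 0.000634), while Obp56e (0.82) and Obp28a (1.47) rose beside Obp56a. Of 30 chemoreceptor genes 4 rose and 2 fell, beside 12.4% of all genes higher and 11.3% lower. The neighbouring taste receptor genes Gr59f (79 to 123.7 at midlife, 11.9 to 22.2 in young heads; log2 change 1.89, SE 0.19, adjusted p = 1.01e-06) and Gr59e (1.67) rose, and the odorant receptor gene Or45b fell (log2 change -0.83, SE 0.16, adjusted p = 0.000798).

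Metabolic genes changed in single members more than as lists. The larval serum protein genes went in opposite directions: Lsp1alpha had 14750, 14670, 10230 and 10990 in midlife libraries against 3319, 3906, 3904, 7452 and 6446 in young libraries (log2 change 1.39, SE 0.34, adjusted p = 0.00588), and Lsp1beta had 4701, 5750, 3835 and 2905 at midlife against 24220, 25420, 21130, 35600 and 36720 in young flies (log2 change -2.74, SE 0.27, adjusted p = 6.58e-07). Each paralogue separated the ages without overlap. bmm, the main triglyceride lipase of fat body, was 7478 to 10650 at midlife and 3121 to 6144 in young heads (log2 change 0.97, SE 0.17, adjusted p = 0.000261), and the lipase gene Lip4 was 3532 to 4524 against 1400 to 2651 (log2 change 0.96, SE 0.21, adjusted p = 0.0025). CG18031, named FarO in the reference tables, a fatty acyl reductase gene, was 135.3 to 207.9 against 285.9 to 514.1 (log2 change -0.90, SE 0.18, adjusted p = 0.00122). Fat body markers gave 2 of 8 higher (bmm and fit, with the call of fit lost without 2uo5) and 0 lower (1 without 2uo1 or 2uo2), and summed to 246600 to 458500 at midlife and 293800 to 596400 in young heads. The amylase genes Amy-p (23460, 32570, 22850 and 30420 in midlife libraries, 9683, 11430, 13570, 10920 and 10120 in young libraries; log2 change 1.29, SE 0.24, adjusted p = 0.000561) and Amy-d (1.32) rose, though reads of these near-identical copies may be split between them. They are 2 of 5 midgut markers measured, which summed to 42210 to 59310 at midlife and 17750 to 24260 in young heads. The part of gut tissue in this rise was not tested. tobi, a glucosidase gene regulated by insulin and glucagon-like signals, was 19260, 21090, 9605 and 6373 in midlife libraries and 31670, 31960, 26070, 31670 and 29140 in young libraries (log2 change -1.26, SE 0.32, adjusted p = 0.00768). Juvenile hormone esterase, Jhe, which degrades the hormone, had 1416, 1409, 2102 and 1490 in midlife libraries and 21.9, 53.4, 56.9, 150.5 and 152.8 in young libraries (log2 change 4.20, SE 0.41, adjusted p = 5.14e-07), and its duplicate Jhedup was 67.8 to 101.1 against 2.7 to 18.4 (log2 change 2.21, SE 0.35, adjusted p = 0.000118). Without 2uo1, 2uy4 and 2uy5 the change of Jhe was 4.88. The hormone receptor genes Met (-0.16) and gce (-0.17) were not called.

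Detoxification and redox genes leaned upward. Of 77 cytochrome P450 genes 22 rose and 4 fell (median 0.29; 15 to 28 rose with a library left out, and 2 fell without 2uo5 or 2uy2); the name pattern also took in cyclophilin genes. Cyp4d1 led with 196.6, 252.6, 282.6 and 252.8 in midlife libraries against 34.3, 51.8, 47.9, 24.7 and 31.7 in young libraries (log2 change 2.33, SE 0.21, adjusted p = 2.1e-07). Of 54 glutathione and UDP-glycosyl transferase genes 14 rose and 6 fell. Both families stand beside 12.4% of all genes higher and 11.3% lower, and the transferases that fell were near that share. CG18869, named Ugt305A1, was 77.2 to 98.2 at midlife and 19.3 to 34.8 in young heads (log2 change 1.30, SE 0.16, adjusted p = 5.76e-06), while se, of the glutathione transferase and eye pigment pathway, fell to 1261 to 1465 at midlife, against 2395 to 3223 in young heads (log2 change -1.04, SE 0.12, adjusted p = 4.1e-06), and GstE14, of ecdysone synthesis, to 797.9 to 931.3 against 1419 to 1693 (log2 change -0.78, SE 0.09, adjusted p = 2.17e-06). The peroxiredoxin genes Prx2540-2 (5834, 9761, 7519 and 13490 in midlife libraries, 2588, 2663, 2234, 2618 and 2741 in young libraries; log2 change 1.76, SE 0.27, adjusted p = 0.000114) and Prx2540-1 (1.82) rose with their neighbours CG11825, CG33474 and CG12896 as a run of 5. The copies are near-identical, so their separate values are uncertain. The superoxide dismutase genes Sod (0.07) and Sod2 (-0.09) were not called. Iron storage rose: the ferritin chains Fer1HCH (39030, 38520, 37790 and 41530 in midlife libraries, 23690, 25560, 24620, 25030 and 24230 in young libraries; log2 change 0.67, SE 0.09, adjusted p = 1.21e-05) and Fer2LCH (30310 to 35310 against 17180 to 18710; log2 change 0.81, SE 0.08, adjusted p = 7.09e-07) had tight values. The iron carrier gene Tsf1 was 167900 to 251100 against 96500 to 159600 (log2 change 0.72, SE 0.20, adjusted p = 0.0131), and its call was lost without 2uo1, 2uy4 and 2uy5 (adjusted p = 0.0610). Of the metallothioneins, which bind copper and other metals, MtnB stood at 69.8, 34, 123.2 and 109.6 in midlife libraries and 1.15, 5.77, 4.69, 7.36 and 2.35 in young libraries (log2 change 2.30, SE 0.33, adjusted p = 5.34e-05). All 5 metallothionein genes, gathered after their values were seen, were called, 4 higher and 1 lower, beside 12.4% of all genes higher and 11.3% lower. Of the 5, 2 were higher without 2uo4 or 2uy1, 1 was higher without 2uo5 and 0 were lower without 2uo1. The median change of the 5 genes was 1.97 within the first column set and -0.01 within the second.

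Histone gene copies, which lie in a tandem array on 2L and were gathered after their values were seen, stood out in number and not in level. All 23 measured H2B copies rose (changes 0.79 to 1.27), summing to 660.5 to 1084 normalized counts in midlife libraries and 153.1 to 375.7 in young libraries. Of 20 H2A copies 15 rose (5 without 2uo5), with sums of 753.6 to 1208 at midlife and 314.6 to 680.9 in young heads. The copies are near-identical, so reads are split among them and they count as a few measurements, not as 43. Polyadenylated RNA was read, so histone transcripts without a poly(A) tail may be missed, and total histone RNA was not measured. With all histone gene copies left out of the count, 1178 genes were higher and 1110 lower.

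Some lists held fewer calls than the 23.7% of all genes. Cytosolic ribosomal protein genes gave 0 of 85, the circadian clock list 0 of 16 and the acetyltransferases and deacetylases 0 of 20. Mitochondrial ribosomal protein genes gave 3 of 74 lower (5 without 2uy1, 1 without 2uo2, 0 without 2uo1, 2uy4 and 2uy5 together). The oxidative phosphorylation list gave 4 of 76 lower (1 without 2uy3 or 2uo1, and 2 without 2uo4, 2uy2, 2uy4 or the same 3 together). The age change of chm itself did not pass. In the oxidative phosphorylation list sesB, the mitochondrial ADP and ATP carrier, was 28180 to 36740 at midlife and 40640 to 53840 in young heads (log2 change -0.51, SE 0.12, adjusted p = 0.00438). Polycomb and heterochromatin genes gave 4 of 26 lower, and 1 or 2 without most single libraries. Other lists had calls at shares closer to those of all genes, or above them in 1 direction. Autophagy genes gave 6 of 30 higher and 0 lower (median 0.13), and antioxidant genes 4 of 17 higher and 0 lower, beside 12.4% of all genes higher. Glycolysis gave 3 of 15 higher, 0 without 2uo5 and 1 without 2uo4, 2uy1, 2uy2 or 2uy3. Muscle sarcomere genes gave 5 of 25 lower, between 2 (without 2uo5) and 11 (without 2uo1, 2uy4 and 2uy5 together), beside 11.3% of all genes lower.

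The wild-type change was also set against that of chm/+ males, for which the same model gave its own midlife minus young value. The difference of the age changes passed the test for 35 genes (0.356%). Of these 32 were called higher with age in wild type and 1 lower. The number was 19 without 2uo4, 22 without CHMo2, 66 without CHMo5 and 8 without 2uo1, 2uy4 and 2uy5 together; without any other single library it was 25 to 36. The 15 steepest increases in wild type were all called higher in chm/+ too. Their changes were smaller there, which their choice by the size of the wild-type change favours; in 6 of them the difference itself passed. CG43175 rose by 6.35 in wild type and 2.09 in chm/+ (difference 4.26, SE 0.68, adjusted p = 0.00699). CG10814 rose by 5.33 in wild type and 1.70 in chm/+ (difference 3.64, adjusted p = 6.23e-05), and NimC4 by 5.01 in wild type and 1.78 in chm/+ (difference 3.23, adjusted p = 0.00933). The other 3 of the 6 were CG7763 (difference 2.95), Jhe (2.94) and spheroide (2.73). CG10814 passed in every fit with libraries left out. CG43175 and NimC4 passed in all but the fit without 2uo1, 2uy4 and 2uy5, and Jhe in all but the fit without 2uo4. CG7763 was lost in 17 of those fits and spheroide in 11. Members of the groups described above were among the 35 as well. The integrin genes scb (0.85) and ItgalphaPS4 (0.98), the tetraspanin genes Tsp42Er (2.31) and Tsp42Ec (1.30), the serine protease series genes CG4650 (2.10) and CG30087 (1.84) and the cytoplasmic actin gene Act42A (0.89) all rose by more in wild type. CG4650 passed in every fit with libraries left out, CG30087 in all but the fit without 2uo1, 2uy4 and 2uy5, and the other 5 were lost in 6 (scb) to 18 (Tsp42Ec) of them. Act42A had 1684, 1581, 1959 and 1996 normalized counts in midlife wild-type libraries and 813.2, 866.3, 778.9, 788.7 and 713 in young wild-type libraries (log2 change 1.17, SE 0.13, adjusted p = 3.62e-06), and its paralogue Act5C rose by 0.57; reads of the actin copies may be shared. CG17005 changed by -2.58 in wild type and -1.50 in chm/+ (difference -1.08, adjusted p = 0.0204), and this was lost without 2uo5, without 2uo1 and without 2uo1, 2uy4 and 2uy5 together. All 15 steepest decreases in wild type were also called lower in chm/+, and CG17005 was the 1 of them whose difference passed. CG6639 changed by 8.38 in wild type and 7.29 in chm/+ without passing (adjusted p = 0.929), which does not show that the 2 changes are alike.

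**Figure D5:**
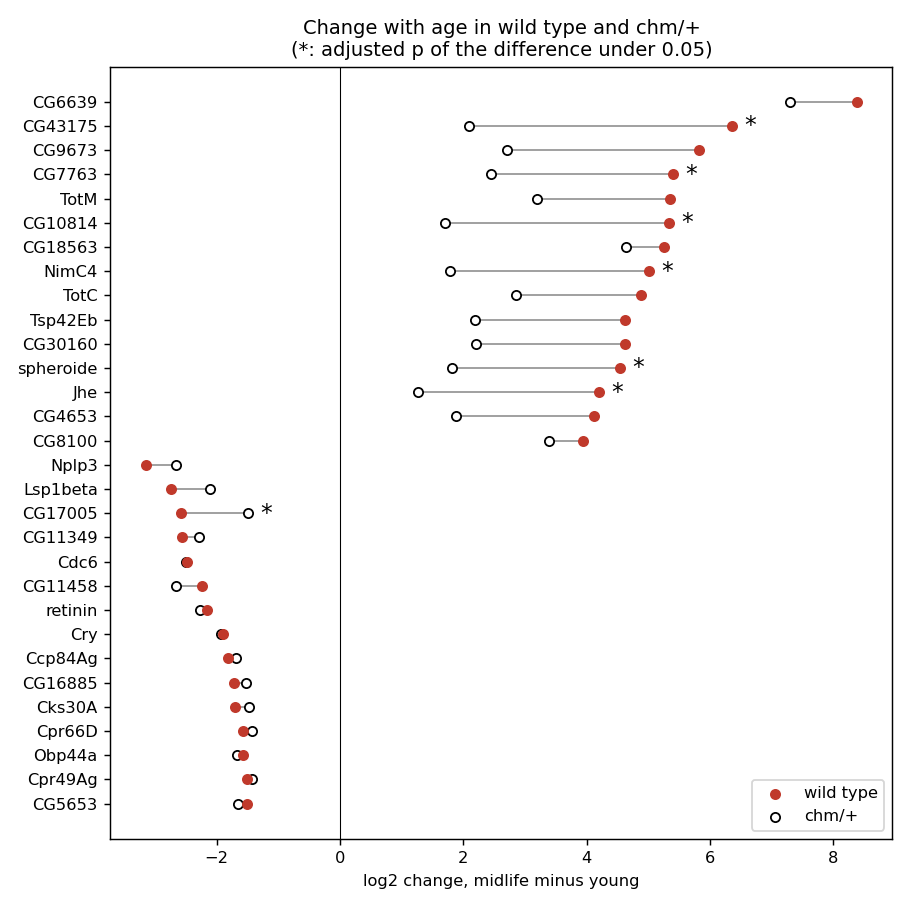
Log2 change with age (horizontal axis, midlife minus young) of the 15 highest and 15 lowest wild-type changes (rows), in wild type (filled) and in chm/+ (open), with a star where the adjusted p of the difference is under 0.05. Rows were chosen by the wild-type change, which favours larger values in wild type; 6 of the increases and CG17005 among the decreases carry a star.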

How the data were processed

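Per the labels' protocols, polyadenylated RNA from pooled male heads was read as single reads. Per the submitters' processing notes, TopHat2 2.0.5, edgeR (no version given) and the build BDGP5 were used. The authors deposited 1 table of normalized counts, a signal of 9831 genes in 20 columns, and the method of normalization is not given in the sources used here. Of the low values 10.3 to 31.3% per column were whole multiples of a read within 0.02, so reads were not recovered and depth is unknown. All 20 columns were mapped to a group, and 0 columns of samples were left unused.

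Values were tested as log2(normalized count + 14.48), which is 0.5 CPM of the mean column total, with limma 3.58.1 in R 4.3.3: group means of all 20 libraries, empirical Bayes moderation with a trend, and Benjamini-Hochberg adjustment over 9831 genes. A filter of 1 CPM in at least 4 libraries removed 0 genes. The wild-type and chm/+ changes were compared by the interaction contrast. Column totals were compared by an exact permutation test. The fit was tested on simulated data drawn separately for each gene. Such data lack the deviations that genes share within a library, so that test cannot give the rate of false calls here. Named genes were the 15 highest and 15 lowest changes among called genes, the 5 smallest p-values and the 5 highest levels in each direction, the 3 smallest p-values and the defining members of each list, and genes passing from under 1 to at least 2 CPM or the reverse; further list members, added families, neighbouring genes and rows alike in value were named after their values were seen. The lists and this comparison were chosen with earlier results of these data known. Gene order and alternative names came from a BDGP6 reference and were not used for coordinates.

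Same-numbered columns did not deviate together: the correlations of their deviations from the group means were -0.533, 0.352, -0.472 and -0.162, so the numbers were not used to pair libraries. Alternatives covered scaling, the addend, filters, moderation, column sets and libraries left out.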

Additional observations from a re-analysis of the deposited data

Results flagged for a closer look

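The age change differed between wild type and chm/+ beyond the test of the difference (limma, Benjamini-Hochberg over all genes) for 14 genes described above. On the log2 scale, wild type minus chm/+, the differences were 4.26 for CG43175, 3.64 for CG10814, 3.23 for NimC4, 2.95 for CG7763, 2.94 for Jhe, 2.73 for spheroide, 2.31 for Tsp42Er, 2.10 for CG4650, 1.84 for CG30087, 1.30 for Tsp42Ec, 0.98 for ItgalphaPS4, 0.89 for Act42A, 0.85 for scb and -1.08 for CG17005.

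In 20 of 390 groups examined (195 genes with values in the text, at 2 ages) 1 library lay far from the others. Chance alone marks about 1 in 20 groups in this way, about 20 here, so their number is near that.
At midlife, 2uo1 was lowest for Cpr49Ag at 361.4 normalized counts (nearest library 510.7) and for dome at 1086 (nearest 1573), and highest for Tsp42Ek at 503.5 (nearest 394.2), Dif at 4967 (nearest 3914) and Stat92E at 17350 (nearest 12480). CG18067 was lowest in 2uo2 at 50490 (nearest 83030), and Jhe was highest in 2uo4 at 2102 (nearest 1490). In 2uo5, Ddc was lowest at 6138 (nearest 6599), Ndg lowest at 28.09 (nearest 50.64) and Fer2LCH highest at 35310 (nearest 31000).
In young flies, 2uy3 was the highest library for CG6639 at 255.3 (nearest 40.96), for CG10814 at 21.09 (nearest 4.759), for PGRP-SC2 at 528.5 (nearest 137.6), for DptB at 3199 (nearest 419.1) and for GstE14 at 1693 (nearest 1458). In 2uy4, CG9673 was lowest at 9.824 (nearest 26.74), spheroide lowest at 13 (nearest 29.2) and CG4650 highest at 5.221 (nearest 1.864). In 2uy1, CG18031 was highest at 514.1 (nearest 314.8) and Ilp5 lowest at 645.6 (nearest 989.8).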

How the results depend on the processing

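As reported, 2329 genes were called, 344 of them at least 2-fold changed, and 35 genes for the difference by genotype. Rescaling columns to equal totals, median-ratio size factors, quantile normalization, robust or untrended moderation, a column-set term, an addend of 0.1 CPM and a filter of 5 CPM kept each of these counts within 1.5 times, as did the 9 wild-type libraries alone for the first pair (1945 and 338). Quantile normalization turned the split of calls, with 1083 higher and 1360 lower. The median change of all genes moved by at most 0.038. An addend of 2 CPM left 224 genes at 2-fold. Keeping genes of at least 10 CPM on average left 164 at 2-fold and 17 for the difference, with fewer genes tested. Array weights gave 3758 calls and 100 for the difference. The first column set alone gave 69 genes for the difference. The second alone, also of 10 columns, gave 408 calls, 212 at 2-fold and 1 for the difference.
Column numbers were not shown to pair the libraries. With the replicate number as a block, over the 8 libraries with a number at both ages, 762 genes were called, 753 of them among the 2329, against 1487 in the same libraries without the block.
With 1 wild-type library left out, 1607 to 2306 genes were called, 309 to 366 at 2-fold. With any 1 of the 20 left out, 19 to 66 passed for the difference, and 8 did without 2uo1, 2uy4 and 2uy5 together, a choice made after seeing the data. The difference of the column totals between ages ran from -400000 to 250000 counts with 1 library left out. The causes of these shifts were not tested.
Of 166 called genes named with values in the text, 0 reversed direction under any setting. Every setting drew on the same libraries as the calls, which favours this. Calls were lost by 85 with the second column set alone, 4 with the first alone, 39 with the replicate block, 8 without 2uo1, 2uy4 and 2uy5 together and 13 with 1 library left out. Rescaling, quantile normalization or the smaller addend cost 4 (Ndg, et, Eaat1 and TwdlT). Depth is unknown, so counting error could not be separated from the spread between libraries.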
